A study of Mus musculus with 2 samples.

Results

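The genes described here encode 8 proteins of folate and one-carbon metabolism: the folate receptor Folr1, the reduced folate carrier Slc19a1, the thymidylate synthase Tyms, the cytosolic enzymes Shmt1 and Mthfd1, and the mitochondrial enzymes Shmt2, Mthfd2 and Mthfd1l. They were chosen by name for their place in the pathway and not by a measured value, though earlier results of these data were known. All 8 were found among the 43346 Ensembl genes of the deposited tables. RNA came from the embryonic facial prominence, the tissue that builds the face, of B6NCrl mice at embryonic day 10.5. The series held 1 group and 2 libraries of total RNA, each from 10 ng of RNA longer than 200 nt. Tissue of 69 embryos went into replicate 1 and tissue of 51 into replicate 2, both sexes mixed. The labels named no mutation, treatment or second tissue, so the values give levels and the difference between pools, and no effect of a condition could be tested.

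Folate carries single carbon units between reactions that build thymidylate, purines and methionine. Cells bring folate in through a carrier or a receptor, load it with a carbon taken mainly from serine, and pass that carbon along parallel sets of enzymes in mitochondria and cytosol, linked by the exchange of formate. The developing face and neural tube are known for their need for folate: maternal folate lowers the risk of neural tube defects in humans, and mouse embryos without Folr1 fail to develop normally unless folate is supplied.

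Levels are given as TPM, the length-corrected share of all transcripts, which the authors scaled to the same total in each library so that genes can be set side by side. Of 40059176 expected counts on genes in replicate 1, the 8 genes held 31994.5, and of 39531700 in replicate 2 they held 33559.8. A gene was called detected at 1 TPM or more in both libraries. Detected genes were 7 of the 8, against 58.2% of the 21474 named protein coding genes. The undetected one was Folr1. By mean TPM the order was Tyms, Shmt1, Shmt2, Mthfd1, Mthfd2, Slc19a1, Mthfd1l and Folr1, and their median of 70.0 TPM stood beside a median of 20.1 TPM over the 12494 detected protein coding genes. In a tissue sample, fewer cells that express a gene and less RNA per cell cannot be told apart. All 5 markers of facial mesenchyme (Msx1, Prrx1, Twist1, Alx1 and Dlx5) and all 5 of ectoderm were detected, as were the 3 neural, 3 endothelial, 3 erythroid and 5 proliferation markers, so the values average over several cell types.

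**Figure D1:**
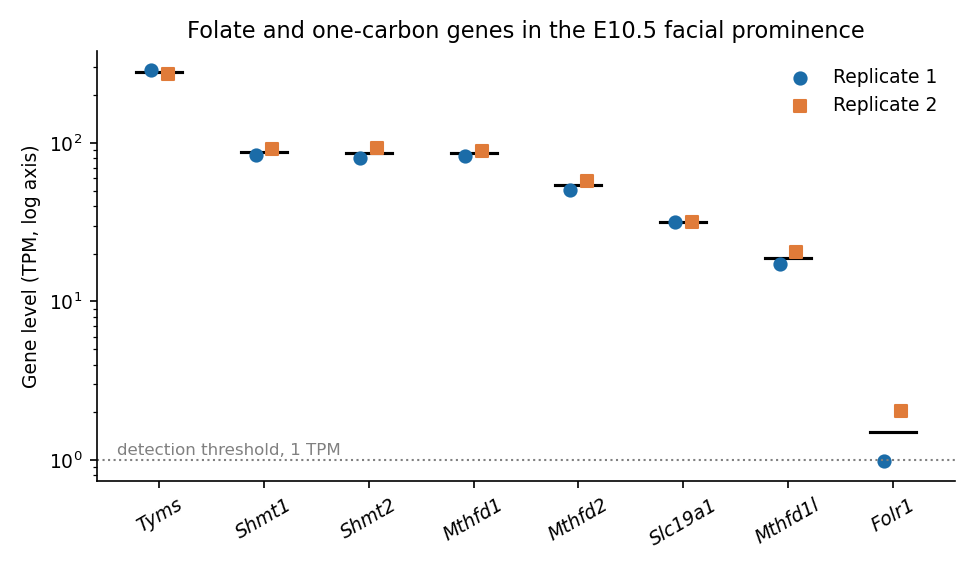
TPM of the 8 genes on a log axis, ordered by mean, with replicate 1 as a circle, replicate 2 as a square and the mean of the 2 pools as a bar. Tyms sits at 281 TPM, Shmt1, Shmt2 and Mthfd1 lie between 80.6 and 93.4 TPM in both pools, and Folr1 straddles the dotted detection line at 1 TPM.

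The 2 uptake genes were far apart, with the carrier well expressed and the receptor near the detection limit. Folr1, a receptor on the cell surface that binds folate and takes it in by endocytosis (ENSMUSG00000001827.7, chromosome 7, 101858331 to 101870788, minus strand, GRCm38), had 0.98 TPM in replicate 1 and 2.04 TPM in replicate 2, from 14 and 37 expected counts. Its mean was 1.51 ± 0.750 TPM (SD, n = 2 pools). That value exceeded the mean of 2.97% of the detected protein coding genes, a set that does not hold Folr1. Slc19a1, the membrane carrier that exchanges reduced folates for organic anions (ENSMUSG00000001436.11, chromosome 10, 77032241 to 77061002, plus strand), had 31.5 TPM in replicate 1 and 31.9 TPM in replicate 2. Its mean of 31.7 ± 0.255 TPM (SD, n = 2 pools) was the steadiest of the 8 on the TPM scale. Folr1 over Slc19a1 gave a log2 difference of -4.39, with a 95% interval of -5.01 to -3.76, and Folr1 lay below Slc19a1 in both pools. The difference was -3.65 with the authors' posterior mean TPM and -3.74 with a pseudocount of 1 TPM, both beyond that interval. Folr2, another folate receptor, had 0.58 and 0.50 TPM, and Folr1 over Folr2 came to 1.25 on the log2 scale with an interval of -0.50 to 3.002, so that these 2 receptors were not separated by more than the replicate spread. They were separated with posterior mean TPM, at 1.94. Slc46a1, a proton-coupled folate carrier, had 12.6 TPM in replicate 1 and 15.4 TPM in replicate 2. Slc19a1 exceeded Slc46a1 by 2.27-fold (1.93 to 2.67), and was the most abundant of these 4 uptake genes in each pool.

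The intervals on these pairs, and on those that follow, rest on the spread between the pools of the 200 genes nearest in level to each gene, on log2(TPM + 0.1). They leave out errors of TPM that belong to one gene. Of 10 pairs compared by function, 7 differed by more than that spread, and of 6 further pairs of neighbours in the order of levels, 5 did. With protein coding transcripts only, all 10 of the pairs compared by function differed by more than the spread. For Folr1 over Folr2 the difference stayed at 1.25 on the log2 scale, so this pair passed through a narrower interval only.

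Tyms, the enzyme that makes thymidylate for DNA and the highest of the 8 genes (ENSMUSG00000025747.8, chromosome 5, 30058202 to 30073617, minus strand), had 287 TPM in replicate 1 and 274 TPM in replicate 2. The mean was 281 ± 9.58 TPM (SD, n = 2 pools), at percentile 95.8 of the detected protein coding genes. Over all its transcripts Tyms exceeded Shmt1, the next gene in the order, by 3.21-fold (2.93 to 3.52). Only part of the Tyms signal was assigned to the transcript that encodes the enzyme. The protein coding transcript Tyms-201, of 3163 bases and 7 exons, had 29.9 TPM in replicate 1 and 30.8 TPM in replicate 2, which was 10.4% and 11.3% of the gene's TPM. By expected counts, which are not divided by length, it held 25.2% and 27.4%. Counting protein coding transcripts only, Tyms over Shmt1 was -0.90 on the log2 scale, so Tyms was then below Shmt1.

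The rest of the Tyms signal was assigned to transcripts of noncoding classes. Tyms-205, annotated as a target of nonsense-mediated decay, the pathway that destroys messages with an early stop, held 43.7% of the TPM in replicate 1 and 43.4% in replicate 2. Tyms-202, annotated as retaining an intron, held 26.8% and 27.6%, and Tyms-206, of the same class, 13.6% and 13.5%. Each of these 3 shares moved by less than 1 percentage point between the pools. Tyms-204, a decay target longer than Tyms-201 with 3884 bases, held 4.80% and 3.94% of the TPM, and 14.3% and 11.8% of the counts. Tyms-205 and Tyms-206 have other lengths in the annotation used by the authors (797 and 2045 bases) than in the one used here for transcript classes (618 and 2723 bases), so the class may not describe the model that was quantified. The last exon of Tyms-201 holds 2307 of its 3163 bases, and Tyms-202 ends upstream of it, within intron 4. The sequences that tell Tyms-201 and Tyms-202 apart lie where exon 4 ends: the spliced form joins exon 5, and Tyms-202 reads on for 239 bases of intron 4. Both are shown 5′ to 3′ on the minus strand of GRCm38, with the shared end of exon 4 in lower case and the differing part in capitals. The first spans chr5:30063382-30064114 with the intron left out, and the second is the unbroken stretch chr5:30064055-30064114.
Tyms-201, exon 4 to exon 5: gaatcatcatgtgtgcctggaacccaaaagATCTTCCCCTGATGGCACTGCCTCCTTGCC
Tyms-202, exon 4 into intron 4: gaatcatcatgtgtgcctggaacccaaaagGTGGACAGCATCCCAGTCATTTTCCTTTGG

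A low share of protein coding transcripts was uncommon among expressed genes. Of 9203 detected protein coding genes with more than 1 annotated transcript, 10.2% had under 50% of their TPM in protein coding transcripts in both libraries, and the median share was 91.4%. The 50% limit was chosen after the values were seen. Tyms was the 1 gene of the 8 below it, and 135 of the 9203 genes (1.47%) had a lower share than Tyms. Both statements rest on the classes of Tyms-205 and Tyms-206, which may not describe the models that were quantified. Tyms-205 alone held 43.7% of the gene's TPM in replicate 1 and 43.4% in replicate 2. Shmt1 was the next lowest of the 8, with 20.2% of the 9203 genes below it. The remaining 6 genes had at least 91.7% of their TPM in protein coding transcripts in each library.

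**Figure D2:**
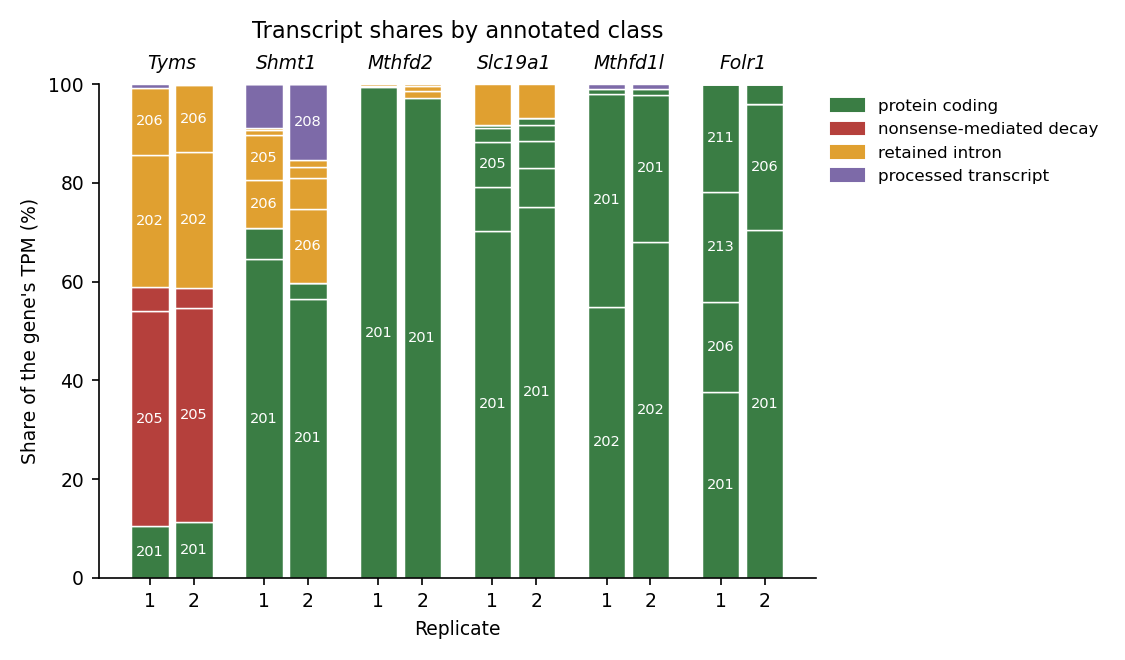
Share of each gene's TPM held by its transcripts (percent), with replicates 1 and 2 as neighbouring bars for the 6 genes with more than 1 transcript, coloured by annotated class, and white numbers giving the transcript suffix. Green protein coding segments fill 10.4% and 11.3% of the Tyms bars and 70.8% and 59.8% of the Shmt1 bars, and at least 91.7% of the bars of the other 4 genes.

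The cytosolic enzymes were present at nearly equal gene levels. Shmt1, the cytosolic serine hydroxymethyltransferase, moves a carbon from serine to folate (ENSMUSG00000020534.10, chromosome 11, 60788104 to 60811718, minus strand). It had 83.4 TPM in replicate 1 and 91.3 TPM in replicate 2, a mean of 87.4 ± 5.58 TPM (SD, n = 2 pools). Mthfd1, a protein with 3 activities that interconverts the cytosolic folate forms and links formate to folate (ENSMUSG00000021048.6, chromosome 12, 76255298 to 76319803, plus strand), had 82.2 TPM in replicate 1 and 89.6 TPM in replicate 2. Its mean was 85.9 ± 5.19 TPM (SD, n = 2 pools). Mthfd1 over Shmt1 differed by -0.024 on the log2 scale (-0.16 to 0.11), which is within the replicate spread. With protein coding transcripts only, the difference was 0.59 and exceeded the spread, since all of the Mthfd1 signal comes from its single transcript Mthfd1-201 and part of the Shmt1 signal does not come from a coding transcript.

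Shmt1 had 59.1 TPM in replicate 1 and 54.6 TPM in replicate 2 from protein coding transcripts, which was 70.8% and 59.8% of its total. Shmt1-201, the full coding form, held 64.5% of the gene's TPM in replicate 1 and 56.5% in replicate 2. Shmt1-206, which retains an intron, held 9.65% and 14.9%. Shmt1-208, a transcript with no annotated reading frame, held 8.81% and 15.4%. Shmt1-205, another retained-intron form, went the other way between the pools, with 9.11% in replicate 1 and 6.30% in replicate 2, as did the coding Shmt1-210 with 6.38% and 3.27%. The gene level was therefore higher in replicate 2 by TPM while the coding level was lower. The sequences below show where the noncoding forms part from Shmt1-201, on the minus strand of GRCm38, 5′ to 3′, with the differing part in capitals and the shared exon in lower case. The first pair shares the end of exon 7 and covers chr11:60794923-60797554, intron left out, and chr11:60797495-60797554.
Shmt1-201, exon 7 to exon 8: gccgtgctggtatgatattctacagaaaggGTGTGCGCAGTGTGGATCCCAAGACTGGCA
Shmt1-206, exon 7 into intron 7: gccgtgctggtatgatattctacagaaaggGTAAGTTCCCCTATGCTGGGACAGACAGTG
The second pair shares the start of exon 6, which Shmt1-201 joins to exon 5 and Shmt1-208 to a first exon of its own, over chr11:60798646-60801457 and chr11:60798646-60799317 with introns left out.
Shmt1-201, exon 5 to exon 6: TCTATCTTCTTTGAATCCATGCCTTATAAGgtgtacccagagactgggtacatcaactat
Shmt1-208, own first exon to exon 6: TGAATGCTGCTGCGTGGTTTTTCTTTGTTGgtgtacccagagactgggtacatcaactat
Shmt1 was the 1 gene of the 8 whose expected counts were not whole numbers (within 0.005), so some of its reads were shared out with other genes. On the opposite strand, Smcr8 overlaps 184 exonic bases of Shmt1-201, and the sources used here do not give whether the counting used strand. Ndufa4l2 overlaps 16 exonic bases of Shmt2-201. Gm47525, a noncoding gene absent from the deposited values, overlaps 37 exonic bases of Mthfd1-201, also on the opposite strand. Anapc15 and Col18a1, which run opposite to Folr1 and Slc19a1, share 0 exonic bases with the 5 most abundant transcripts of each.

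**Figure D3:**
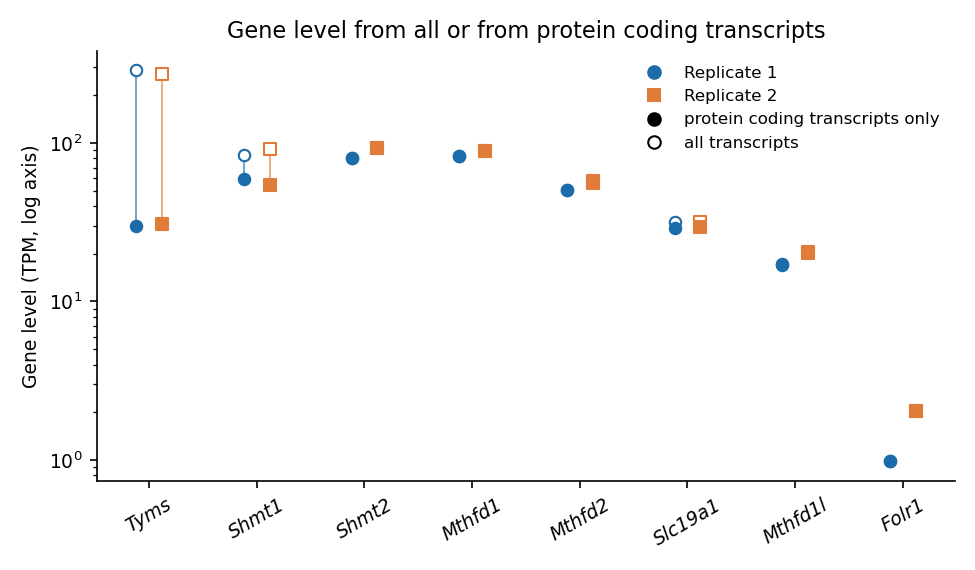
TPM of each gene on a log axis from all transcripts (open symbols) and from protein coding transcripts only (filled symbols), with circles for replicate 1 and squares for replicate 2. Tyms drops to 29.9 and 30.8 TPM and Shmt1 to 59.1 and 54.6 TPM, while the symbols of the genes with a single transcript, Shmt2 and Mthfd1, coincide.

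The mitochondrial enzymes formed a graded series, Shmt2 above Mthfd2 above Mthfd1l. Shmt2, the mitochondrial serine hydroxymethyltransferase (ENSMUSG00000025403.4, chromosome 10, 127517123 to 127522444, minus strand), had 80.6 TPM in replicate 1 and 93.4 TPM in replicate 2, a mean of 87.0 ± 9.06 TPM (SD, n = 2 pools). Mthfd2, the mitochondrial methylene-folate dehydrogenase and cyclohydrolase (ENSMUSG00000005667.6, chromosome 6, 83305691 to 83325908, minus strand), had 50.5 TPM in replicate 1 and 57.8 TPM in replicate 2, a mean of 54.2 ± 5.15 TPM (SD, n = 2 pools). Mthfd1l, which releases formate from folate in mitochondria (ENSMUSG00000040675.13, chromosome 10, 3973118 to 4167081, plus strand), had 17.3 TPM in replicate 1 and 20.5 TPM in replicate 2, a mean of 18.9 ± 2.29 TPM (SD, n = 2 pools). Shmt2 exceeded Mthfd2 by 1.60-fold (1.44 to 1.79), and Mthfd2 exceeded Mthfd1l by 2.86-fold (2.45 to 3.34). Mthfd2 also exceeded Mthfd2l, its paralog with a related activity, by 2.47-fold (2.17 to 2.81).

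Comparing the same step in each compartment gave different pictures for the 2 ends of the route. At the serine step, Shmt2 over Shmt1 differed by -0.0091 on the log2 scale (-0.14 to 0.12), with Shmt1 higher in replicate 1 and Shmt2 higher in replicate 2. By protein coding transcripts only, Shmt2 over Shmt1 was 0.61, beyond the spread. At the formate step, the cytosolic Mthfd1 exceeded the mitochondrial Mthfd1l by 4.54-fold (3.93 to 5.25). Mthfd1 also interconverts the cytosolic folate forms, so its level does not belong to the formate step alone. Shmt2 over Mthfd1, which stand next to each other in the order, differed by 0.015 on the log2 scale (-0.12 to 0.15). Over all transcripts, the neighbours Shmt1, Shmt2 and Mthfd1 could not be ordered beyond the replicate spread, while over coding transcripts Shmt1 lay below the others. Shmt2 and Mthfd1 have 1 annotated transcript each and Shmt1 has 11. Counting coding transcripts only could therefore lower Shmt1 but not Shmt2 or Mthfd1. The steps below them were larger: Mthfd1 exceeded Mthfd2 by 1.59-fold (1.42 to 1.77), Mthfd2 exceeded Slc19a1 by 1.70-fold (1.503 to 1.93), Slc19a1 exceeded Mthfd1l by 1.68-fold (1.44 to 1.97) and Mthfd1l exceeded Folr1 by 12.4-fold (8.01 to 19.3). That last step, 3.64 on the log2 scale, was 2.87 with posterior mean TPM and 3.01 with a pseudocount of 1 TPM.

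Summed over the 3 mitochondrial genes, the level was 148 TPM in replicate 1 and 172 TPM in replicate 2. The 2 cytosolic genes summed to 166 TPM in replicate 1 and 181 TPM in replicate 2. The log2 ratio of mitochondrial over cytosolic was -0.16 in replicate 1 and -0.075 in replicate 2, with a mean of -0.12. Its direction depended on which transcripts were counted: protein coding transcripts gave 148 and 170 TPM for the mitochondrial genes, against 141 and 144 TPM for the cytosolic genes, and a mean log2 ratio of 0.15. The turn came from Shmt1, the 1 gene of these 5 with more than 3% of its TPM in noncoding transcripts. The direction also rested on which genes were summed. Mthfd2l, left out, had 22.6 TPM in replicate 1 and 21.1 TPM in replicate 2. Over all transcripts, each value exceeded the lead of the cytosolic sum in that pool. The mitochondrial folate enzymes left out, Mthfd2l among them, summed to 41.3 and 41.5 TPM, and the cytosolic ones left out to 18.0 and 15.0 TPM.

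The remaining genes with several transcripts drew most of their TPM from coding forms. Mthfd1l-202 held 54.8% of the TPM in replicate 1 and 68.1% in replicate 2, and Mthfd1l-201 43.2% and 29.6%, with a coding sequence of 2931 bases in both. Mthfd2-201 held 99.3% and 97.1%. Slc19a1-201 held 70.3% of the Slc19a1 signal in replicate 1 and 75.2% in replicate 2. Slc19a1-205, a short coding form, held 9.06% and 5.52%, and Slc19a1-202, a retained-intron form, 8.32% and 6.96%. Folr1 had 17 annotated transcripts, of which 12 were at 0 in both libraries. Folr1-201 led with 37.7% in replicate 1 and 70.4% in replicate 2, and Folr1-206 held 18.2% and 25.6%. Folr1-211 (21.8%) and Folr1-213 (22.3%) were listed in replicate 1 and at 0 in replicate 2. With 14 and 37 counts behind the gene, these Folr1 shares stand on few reads. The same transcript led in both libraries for 6 of the 6 genes with more than 1 transcript, against 91.4% of 9593 expressed genes. With the posterior mean estimate the count was 5 of 6, Folr1 being the exception.

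Slc19a1 had 2 full-length coding forms with separate first exons. Slc19a1-209 held 8.97% of the TPM in replicate 1 and 7.89% in replicate 2, and its 5′ end lies 528 bases upstream of that of Slc19a1-201. Both carry the same coding sequence of 1536 bases. The bases just upstream of each 5′ end are shown because they belong to 2 starts of 1 gene with unequal shares, from RefSeq promoter windows on GRCm38.p6, plus strand, 5′ to 3′, with a GC box (GGGCGG, either strand) in capitals where present. They cover chr10:77033017-77033211 and chr10:77032489-77032683.
Upstream of Slc19a1-201: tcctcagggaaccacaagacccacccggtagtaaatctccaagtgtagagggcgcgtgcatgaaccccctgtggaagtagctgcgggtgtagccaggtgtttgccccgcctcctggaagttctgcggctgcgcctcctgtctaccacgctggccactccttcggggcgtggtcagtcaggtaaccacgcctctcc
Upstream of Slc19a1-209: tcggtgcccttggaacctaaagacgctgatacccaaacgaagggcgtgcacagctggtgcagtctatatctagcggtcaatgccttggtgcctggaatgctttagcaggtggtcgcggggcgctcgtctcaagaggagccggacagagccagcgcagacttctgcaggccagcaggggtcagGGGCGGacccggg
The window of Slc19a1-201, the form with the larger share, holds 11 CpG dinucleotides and 0 GC boxes, and that of Slc19a1-209 holds 13 CpG dinucleotides and 1 GC box.

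RefSeq promoter windows of 300 bases, 250 before and 50 after a start, were found for 7 of the 8 genes, Slc19a1 having 2. All 8 windows held more CpG dinucleotides, 8 to 21, than the median of 7 over the 32851 windows of the genome, and their GC content ran between 42.7% (Shmt2) and 62.3% (Slc19a1) beside a median of 52.7%. Searched on both strands, GGGCGG was found in 5 of the 8 windows and in 35.7% of all windows, CCAAT in 3 of 8 and 37.4%, and TATAAA in 0 of 8 and 13.6%. The E2F-type motif TTTNNCGC, of the kind bound by factors that act at the start of DNA synthesis, was found in the windows of Tyms and Shmt2 and in 5.17% of all windows. The motif TGATGNAA, of the kind bound by the amino acid response factor ATF4, was found in 0 of the 8 windows and in 3.97% of all windows. A match gives the letters only, and binding was not measured.

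Folr1 had the largest fold between the pools, on the fewest counts of the 8 genes. Replicate 2 over replicate 1 was taken on expected counts after TMM scaling, with intervals that cover counting error only. Folr1 was the 1 gene of the 8 at least 1.5-fold apart, against 10.7% of the 17546 genes with a mean count of 10 or more, or 4.34% in the same direction. Its ratio was 2.71 (1.43 to 5.43) from 37 counts in replicate 2 and 14 in replicate 1. With a prior count of 2 added to each count, which lowers the ratio, the log2 ratio was 1.32. It stood beside a root mean square of 0.74 over the 200 genes nearest in count. On TPM the ratio was 2.08, because the authors' effective length for Folr1 was 690 bases in replicate 2 and 540 bases in replicate 1. The TPM in replicate 1 also lay below the lower of the authors' own bounds for it, 1.20 to 2.97 TPM, and the posterior mean TPM was 2.95 in replicate 2 and 2.04 in replicate 1. On posterior mean TPM the log2 ratio was 0.51, short of the 0.58 that 1.5-fold makes.

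The remaining 7 genes lay between 0.966 and 1.22-fold. Tyms was 0.966-fold (0.939 to 0.994), Shmt1 1.05-fold (1.01 to 1.10), Slc19a1 1.07-fold (0.996 to 1.14) and Mthfd1 1.11-fold (1.07 to 1.15). The 3 mitochondrial genes had the largest of these ratios, with Mthfd2 at 1.14-fold (1.09 to 1.21), Shmt2 at 1.18-fold (1.14 to 1.23) and Mthfd1l at 1.22-fold (1.14 to 1.30). Their log2 ratios of 0.19, 0.24 and 0.28 stood beside root mean squares of 0.13, 0.090 and 0.13 over genes of like count. Set against that spread, the log2 ratio was 2.68 times as large for Shmt2, 2.21 times for Mthfd1l, 1.78 times for Folr1 and 1.54 times for Mthfd2. Replicate 2 was higher for 7 of the 8 genes and for 8738 of 17546 genes overall.

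Some markers of other tissues also differed between the pools. The 3 heart markers Myl7, Tnnt2 and Myh6 summed to 24.4 TPM in replicate 2 and 5.62 TPM in replicate 1, and all 3 were at least 1.5-fold higher in replicate 2. The 4 yolk sac and liver markers summed to 7.35 TPM in replicate 2 and 6 TPM in replicate 1, with Alb at 0 in both and Afp at 1.09 and 0.11 TPM. The 3 erythroid markers summed to 7034 TPM in replicate 2 and 8176 TPM in replicate 1, each lower in replicate 2, with log2 ratios between -0.21 and -0.14. For the 3 neural markers the log2 ratio was 0.40 (Sox2), 0.056 (Tubb3) and 0.067 (Elavl4). For the 3 endothelial markers it was -0.23 (Pecam1), 0.012 (Cdh5) and 0.050 (Kdr), so neither list moved as a whole by the value of Sox2 or Pecam1. Among the 5 facial mesenchyme markers, summing to 544 TPM in replicate 2 and 576 TPM in replicate 1, Alx1 was at least 1.5-fold lower in replicate 2. The 5 proliferation markers summed to 1214 TPM in replicate 2 and 1197 TPM in replicate 1. The part of these differences in the Folr1 ratio or in the mitochondrial ratios was not tested.

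**Figure D4:**
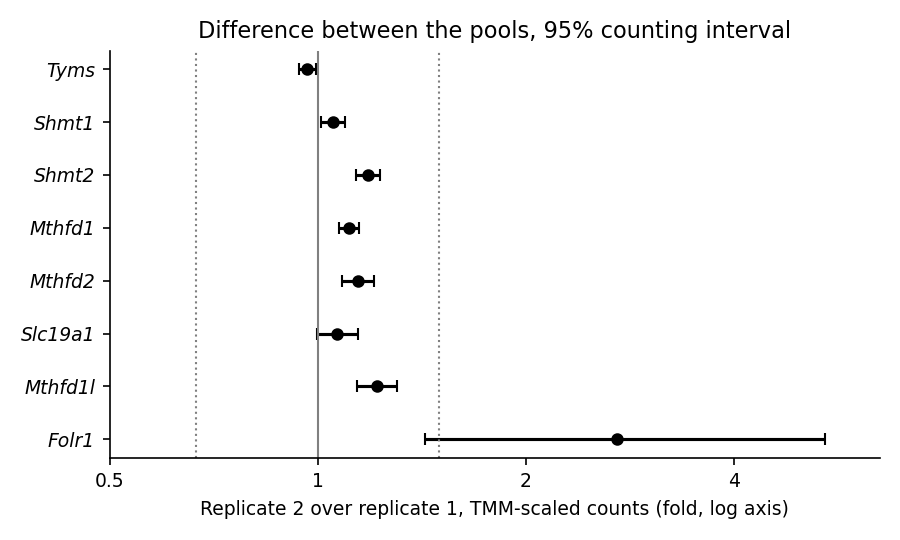
Ratio of replicate 2 over replicate 1 for each gene on TMM-scaled counts (log axis), with bars for the 95% counting interval and dotted lines at 1.5-fold in either direction. Folr1 lies at 2.71-fold with the widest interval, and the other 7 genes lie between 0.966 and 1.22-fold.

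The wider pathway was expressed almost throughout. Of 38 further genes of folate uptake, one-carbon exchange and the reactions it feeds, 35 were detected, against 58.2% of named protein coding genes. The median of the 38 was 30.6 TPM, beside 20.1 TPM over detected protein coding genes and 3.57 TPM over all named protein coding genes. The undetected genes were Folr2, Ftcd and Bhmt. Of the 36 with a mean count of 10 or more, 0 were at least 1.5-fold apart between the pools, against 10.7% of all 17546 such genes. That share is not matched for count. Among genes of like count, the root mean square log2 ratio was 0.74 near Folr1 and 0.094 near Paics. Replicate 2 was higher for 28 of the 36, against 8738 of the 17546. The median log2 ratio was 0.071, against -0.00088 over all these genes.

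Among genes of uptake and retention, 4 of 5 were detected. Fpgs, which adds the glutamate tail that keeps folate inside cells, led with 28.4 TPM in replicate 1 and 29.7 TPM in replicate 2, and Folr2 was lowest. In thymidylate supply, Dut, which makes the precursor that Tyms methylates, had 224 TPM in replicate 1 and 238 TPM in replicate 2. Of 3 other cytosolic folate enzymes, 2 were detected. Mthfs, which recycles a formyl folate, had 16.4 and 13.8 TPM, and Aldh1l1, which oxidises formyl folate in the cytosol, had 1.65 and 1.20 TPM. The undetected Ftcd, an enzyme of histidine breakdown, had 0 counts in each library, which allows up to 3. All 3 further mitochondrial enzymes were detected. Mthfd2l led them with 22.6 TPM in replicate 1 and 21.1 TPM in replicate 2, and Aldh1l2, which oxidises formyl folate, was lowest with 1.78 and 1.46 TPM.

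Among the 11 genes of the methionine and methyl cycle, 10 were detected. Mat2a, which makes the methyl donor S-adenosylmethionine, led with 346 TPM in replicate 1 and 344 TPM in replicate 2. Bhmt, a betaine-dependent methyltransferase best known from liver, was lowest, with 11 counts in replicate 2 and 0 in replicate 1. With a floor of 3 counts in place of the 0, replicate 2 was 3.76-fold higher. That value leaves out the counting error of the 11 counts, and the mean count was below the 10 required for ratios. All 4 glycine cleavage genes were detected, from Gcsh at 154 and 158 TPM down to Gldc at 12.1 and 14.0 TPM in replicates 1 and 2. All 3 serine synthesis genes were detected, from Phgdh, the first enzyme of that pathway, at 315 and 316 TPM down to Psph at 30.4 and 33.8 TPM. All 6 purine synthesis genes were detected, from Paics at 397 and 415 TPM down to Ppat, which takes the committed step, at 44.8 and 47.1 TPM. Every gene of the glycine cleavage, serine and purine groups was higher in replicate 2 after scaling, with log2 ratios between 0.012 and 0.23.

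**Figure D5:**
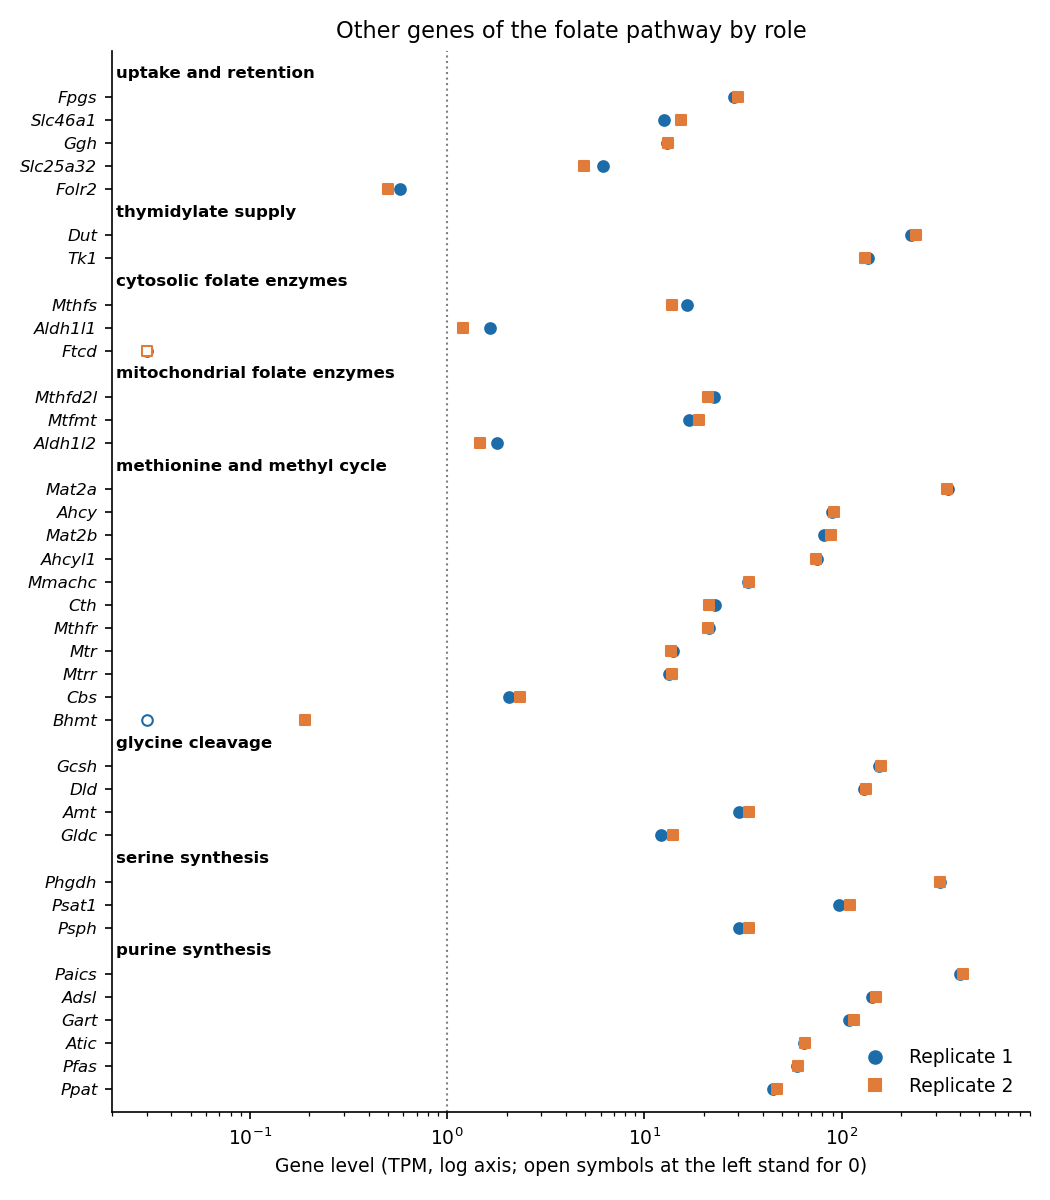
TPM of 37 further pathway genes on a log axis, grouped by role, with circles for replicate 1, squares for replicate 2 and open symbols at the left edge for a value of 0. Paics and Mat2a lie farthest to the right, at 406 and 345 TPM on average, and Folr2, Ftcd and Bhmt lie left of the dotted detection line at 1 TPM.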

How the data were processed

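Total RNA from 2 pools of embryonic facial prominence was sequenced. Expected counts per gene and transcript were deposited by the authors as estimates, not normalized. TPM values were deposited by the authors, scaled over all features of a file, and each transcript's share of its gene was deposited as a percent. Per the accompanying notes, reads were placed on mm10 and quantified against GENCODE M4. The aligner, the quantifier, their versions and the strand use are not given in the sources used here. Symbols, classes and coordinates came from GENCODE M21 on GRCm38, the same assembly, by identifier without version. Of 53 transcripts of the 8 genes, 52 were matched and 48 had the same length.

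Expected counts summed to 41492881 in replicate 1 and 41153413 in replicate 2 over 69691 features, and 42462 of the 43346 Ensembl genes had a symbol. Chi-square between the libraries was 8.96 per degree of freedom over 17488 genes, above sampling noise, and they count as 2 samples. Ratios between pools used edgeR 4.0.16 TMM factors of 1.01 and 0.994, a prior count of 2 on the log2 scale, and exact Clopper-Pearson intervals, which cover counting error only. Pairs of genes were set against each other on log2(TPM + 0.1) with an interval of 1.96 standard errors, from the replicate differences of the 200 genes nearest in level. With 1 group there is no test of a condition and no p-value. Scripts were tested on simulated data.

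Alternatives were DESeq2 1.42.0 size factors, library size, posterior mean TPM, other pseudocounts and thresholds, protein coding transcripts only, and each replicate left out. The 8 genes, the 38 pathway genes, the pairs and the markers were chosen with earlier results of these data known. From the pathway list, the text names the highest and lowest gene of each role group, undetected genes and genes of the pairs. Values of 1 pathway gene and its pair are not reported here, though counts over the list and the pairs hold them. Aldh1l1 and the marker genes named singly were named after their values were seen. Promoter windows came from RefSeq on GRCm38.p6.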

Additional observations from a re-analysis of the deposited data

How the results depend on the processing

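Counting protein coding transcripts only changed the most. The mitochondrial over cytosolic log2 ratio, which leaves out Mthfd2l, became 0.15, against -0.12 over all transcripts. On the same count Tyms over Shmt1 turned from 1.68 to -0.90, past the spread before the turn. That turn rests on classes of Tyms-205 and Tyms-206 that may not describe the quantified models. Shmt2 over Shmt1 became 0.61 and Mthfd1 over Shmt1 0.59, from -0.0091 and -0.024, which were within the spread. Rescaling TPM over protein coding genes put the median of the pathway list at 36.7 TPM, against 30.6. Without replicate 1 Shmt2 over Shmt1 was 0.032 and without replicate 2 it was -0.050; without replicate 2 Shmt2 over Mthfd1 was -0.029 and without replicate 1 it was 0.060. Folr1 over Folr2 exceeded the replicate spread with a pseudocount of 0.01 (1.38), with posterior mean TPM (1.94) and with coding transcripts (1.25). Over all transcripts Folr1 over Folr2 was also 1.25, so with coding transcripts the interval changed and the difference did not. Of 96 pair values recomputed, 88 kept direction and side, 5 changed sign and 3 passed the limit with the same sign. Counted by the limit alone, 5 newly passed it, Folr1 over Folr2 under 3 settings and Shmt2 over Shmt1 and Mthfd1 over Shmt1 with coding transcripts, and 0 no longer did. The pairs past the limit thus numbered 7 of 10, 8 with a pseudocount of 0.01 or posterior mean TPM, and 10 with coding transcripts. Detected genes were 7 or 8 of the 8 and 31 to 36 of the 38 under every alternative run; Folr1 was the 1 gene of the 8 that changed. Folr1 was also the 1 gene at least 1.5-fold apart with TMM, DESeq2 or library size scaling and with TPM, but with posterior mean TPM 0 genes were. That alternative, and detection counted from coding transcripts (7 of 8), were chosen after the data were seen. The cause of these changes was not tested, except that coding transcripts leave out part of Tyms and Shmt1 by construction. No paired analysis was possible because there is 1 group. Folr1, Folr2, Ftcd and Bhmt are limited by depth, with at most 37 counts per library.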
